A study of Homo sapiens with 24 samples.

Results

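Mitotic regulators and spindle-checkpoint genes were followed in 2 EGFR-mutant lung cancer cell lines after 24 h of combined EGFR and MEK inhibition, with and without YAP1. The set holds 44 genes, taken as the rows of the deposited expression table (25365 rows) that carry the symbols of a list of mitotic kinases, cyclins, regulators of the anaphase-promoting complex, checkpoint proteins and cytokinesis proteins. All 44 were found. The rule itself uses no measured value, but the list was chosen with earlier results of these data known. PC9 and HCC4006 are established human lung cancer lines with an activating EGFR mutation. In each line there were control cells (CTRL) and YAP1-knockout cells (YAP1 KO), and each was treated with the solvent DMSO or with OT, which is 100 nM osimertinib, an inhibitor of mutant EGFR, together with 30 nM trametinib, an inhibitor of the kinase MEK. Each of the 8 combinations had 3 libraries (24 in all), which are named here by line, genotype and treatment. The column names of the deposited table carry a single knockout designation per line. Whether that stands for 1 clone or a pool, and what the CTRL cells carry, is not stated in the labels. The design asks how the knockout of YAP1, a transcriptional co-activator of the Hippo pathway, bears on the response to the drug pair.

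Entry into mitosis is driven by the kinase CDK1 bound to cyclin A or cyclin B, and CDC25 phosphatases remove the inhibitory phosphates that hold CDK1 back. Polo-like and Aurora kinases then build the spindle, and the spindle checkpoint (BUB1, BUBR1, BUB3, MAD2, TTK) keeps CDC20 from activating the anaphase-promoting complex (APC/C) until every chromosome is attached. The active APC/C marks securin and cyclin B for destruction, separase opens the sister chromatids, and cytokinesis follows. Transcripts of most of these proteins are low in resting cells and peak in G2 and M phase. The DREAM and MuvB complexes, with B-MYB and FOXM1, are known to act at the CHR elements of such promoters.

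The library labels were checked against YAP1 itself. In PC9 it read 43.3, 42.5 and 42.9 FPKM (fragments per kilobase of transcript, scaled to the mapped fragments of the library) in CTRL DMSO and 12.2, 12.4 and 11.6 in YAP1 KO DMSO, and in HCC4006 18.5, 16.5 and 19.7 against 4.24, 4.59 and 3.9. Under OT the values were 33.8, 34.2 and 34.5 against 11.6, 10.1 and 11.3 in PC9 and 16.9, 13.9 and 15.6 against 5.97, 6.34 and 6.07 in HCC4006, so no knockout library reached a control library of its line. DUSP6, an ERK-induced phosphatase, was at 0.86 FPKM or lower in each of the 12 OT libraries and at 4.68 or higher in each DMSO library. Total counts are unknown because only FPKM were available. Whole-read steps in low genes put the relative depth of the libraries between 0.945 and 1.42. All 10 epithelial markers were measured in both lines, whereas none of 5 lung lineage markers passed the filter in PC9 (FOXA2 was at 0) and 3 of 5 did in HCC4006. Of 8 fibroblast markers 1 passed in PC9 (DCN and PDGFRA at 0) and 3 in HCC4006, and of 8 blood and immune markers 1 passed in PC9 (HBB at 0) and 3 in HCC4006, CD68 being the highest in both. The summed FPKM of a library was 604392 to 620813 in PC9 DMSO, 566982 to 593526 in PC9 OT, 621936 to 660459 in HCC4006 DMSO and 507120 to 574160 in HCC4006 OT. Every OT library thus had a smaller sum than any DMSO library of its line, and the OT falls of the 44 genes were all called when every library was scaled to the same sum.

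The promoters of the members are shown first, and whether they bear on the changes given below was not tested. RefSeq windows on GRCh38.p14 (250 bases before to 50 bases after an annotated start) were at hand for 35 of the 44 genes. The other 9 are BIRC5, HMGB2, TTK, AURKA, BUB3, FOXM1, TPX2, UBE2C and RACGAP1. Both strands were searched for the CHR element (TTTGAA or TTCGAA), the CCAAT box (CCAAT) and an E2F site (TTTCGCGC, TTTGGCGC, TTTCCCGC or TTTGCCGC). None of these strings lies inside another. A CHR was found in 27 of 35 members (77.1%), against 19.5% of the 27305 genes with a window and 15.2% of the 8729 such genes that were measured in both lines. A CCAAT box was found in 31 members (88.6%), against 39.7% and 43.3%, and both elements in 25 members (71.4%), against 7.85% and 6.48%. These last shares over genes ask for both elements in the same window, whereas the member count does not. PLK4 is counted among the 25 with its CHR and its CCAAT box in different windows. The E2F site was found in 2 members, CDK1 and NUSAP1 (5.71%), against 3.99% and 6.91%. A match is a description of these letters only, and a missing match says nothing about any factor. The 120 bases before the start of 8 members follow, all on the plus strand, 5′ to 3′, with the letters of CHR and CCAAT in capitals (in either orientation, so TTCAAA and ATTGG are the reverse strand). The first 3 show a CHR with at least 1 CCAAT box upstream of it, CKS1B and CKS2 are a pair that parted in HCC4006 below, ANLN holds 2 adjoining CHR matches and no CCAAT box, CCNB1 holds CCAAT boxes only, and MYBL2 holds neither.
PLK1 (chr16:23678769-23678888): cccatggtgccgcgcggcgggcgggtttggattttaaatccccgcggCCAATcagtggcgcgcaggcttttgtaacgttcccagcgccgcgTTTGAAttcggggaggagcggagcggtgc
CCNB2 (chr15:59105026-59105145): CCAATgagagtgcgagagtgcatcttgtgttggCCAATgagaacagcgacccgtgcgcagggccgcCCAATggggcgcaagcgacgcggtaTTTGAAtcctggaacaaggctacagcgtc
CDC20 (chr1:43358861-43358980): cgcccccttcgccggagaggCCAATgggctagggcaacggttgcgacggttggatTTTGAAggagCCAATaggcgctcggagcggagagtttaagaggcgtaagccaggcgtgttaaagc
CKS1B (chr1:154974561-154974680): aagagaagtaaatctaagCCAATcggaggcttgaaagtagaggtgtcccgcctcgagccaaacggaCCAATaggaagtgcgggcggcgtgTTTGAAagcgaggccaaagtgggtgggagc
CKS2 (chr9:89311075-89311194): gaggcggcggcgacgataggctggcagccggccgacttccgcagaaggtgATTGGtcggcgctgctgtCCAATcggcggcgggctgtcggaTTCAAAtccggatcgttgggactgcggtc
ANLN (chr7:36389742-36389861): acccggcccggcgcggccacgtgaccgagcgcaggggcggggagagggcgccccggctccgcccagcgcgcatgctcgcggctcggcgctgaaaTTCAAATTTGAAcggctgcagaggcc
CCNB1 (chr5:69167030-69167149): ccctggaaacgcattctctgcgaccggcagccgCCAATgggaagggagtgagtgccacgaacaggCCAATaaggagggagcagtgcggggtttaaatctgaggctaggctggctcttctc
MYBL2 (chr20:43666994-43667113): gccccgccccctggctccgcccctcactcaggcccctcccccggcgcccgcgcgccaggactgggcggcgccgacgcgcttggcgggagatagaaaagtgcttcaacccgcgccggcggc
In PLK1 the CHR began 29 bases before the start and the CCAAT box 73 bases before it, and in CCNB2 the CHR began at 29 and the boxes at 54, 87 and 120. The CHR of CKS2 also began 29 bases and that of CKS1B 30 bases before the start, whereas that of CDC20 began at 65.

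OT lowered every member in both lines and in both genotypes. Differences were taken on log2(FPKM + 1) with limma, p-values were adjusted by Benjamini-Hochberg over all genes measured in a line (12685 in PC9, 13113 in HCC4006), and a gene was called at an adjusted p below 0.05. In PC9 CTRL cells 44 of 44 members fell, against 40.9% of all genes, with a median log2 difference of -1.11 (all genes: -0.04), and 30 members fell at least 2-fold (4.60% of all genes). In HCC4006 CTRL cells 44 of 44 fell, against 36.6% of all genes, with a median of -3.41 (all genes: 0.09), and all 44 fell at least 2-fold (9.74%). In YAP1 KO cells 44 of 44 fell in PC9 (41.4% of all genes; median -1.40) and in HCC4006 (36.5%; median -3.85). As a share of the mean level under DMSO, CTRL cells of PC9 kept between 27.2% (MAD2L1) and 64.8% of a member, with a median of 45.1%. Those of HCC4006 kept between 3.62% (CDK1) and 47%, with a median of 6.77%. For each of the 44 members every OT library read lower than every DMSO library of its line and genotype, which held for 42.0% of all genes in each PC9 genotype, and for 36.4% in HCC4006 CTRL and 38.2% in HCC4006 YAP1 KO. The summed level of the 44 genes went from 3946.1 ± 68.87 FPKM (SD, n = 3) to 1856.9 ± 16.45 in PC9 CTRL and from 4033.0 ± 24.67 to 427.0 ± 6.57 in HCC4006 CTRL. In bulk RNA, fewer cells in mitosis and less of each transcript per cell cannot be told apart, and FPKM show a gene's part of the measured RNA and not its amount per cell.

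**Figure D1:**
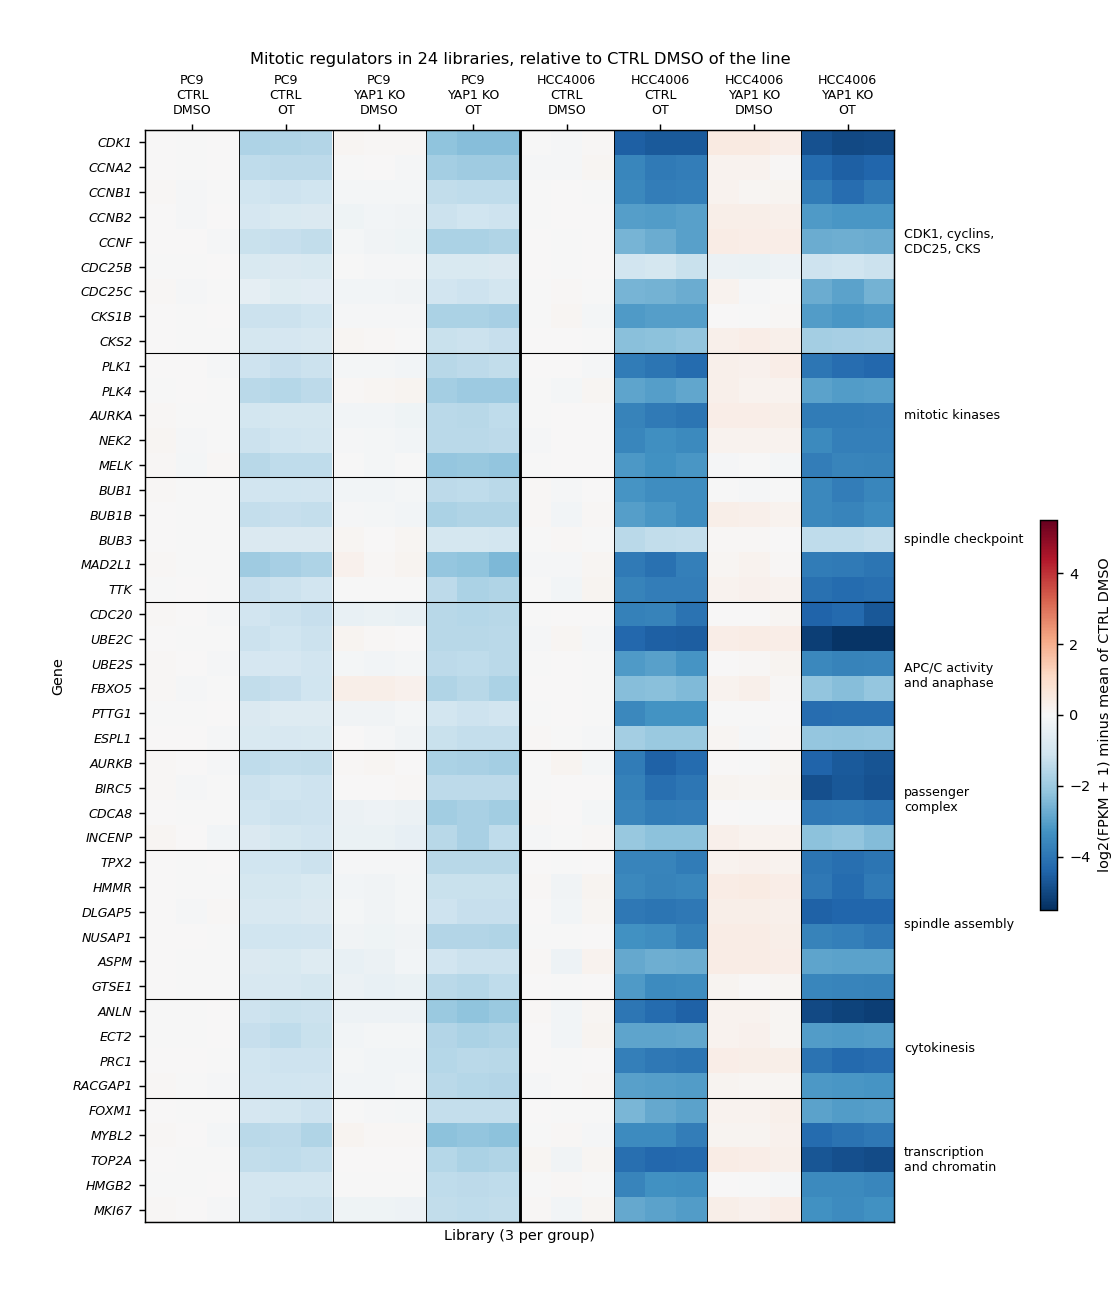
Each row is 1 of the 44 genes, ordered by role, and each column 1 of the 24 libraries, with PC9 left of the thick line and HCC4006 right of it. Colour is log2(FPKM + 1) minus the mean of the 3 CTRL DMSO libraries of the line. Blue fills every OT column, and it is deeper in HCC4006, where CDC25B and BUB3 stay palest.

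Among CDK1 and its partners, all 9 genes fell in each line (median -1.11 in PC9 CTRL, -3.03 in HCC4006 CTRL). CDK1, the kinase that starts mitosis, read 166, 161 and 165 FPKM in PC9 CTRL DMSO and 49.6, 51.1 and 53.6 under OT, a log2 difference of -1.65 ± 0.04 (SE; adjusted p = 6.1e-12). In HCC4006 CTRL it read 164, 162 and 178 and 6.51, 5.85 and 5.89 (-4.58 ± 0.06, adjusted p = 1.5e-13). In HCC4006 this was the largest fall of the 44, and in PC9 only MAD2L1 had a larger log2 difference. CCNB1, cyclin B1, read 172, 161 and 166 under DMSO and 76.4, 75.2 and 78.0 under OT in PC9 CTRL (-1.11 ± 0.03). In HCC4006 CTRL it read 144, 145 and 144 and 11.4, 9.47 and 9.64 (-3.70 ± 0.08). Both cyclin B genes and CCNA2, cyclin A2, lost more in HCC4006 than in PC9, CCNA2 with log2 differences of -1.43 ± 0.03 and -3.77 ± 0.09. CDC25B, 1 of the phosphatases that activate CDK1, moved least in this group in HCC4006 and on the mean of the lines. It read 34.2, 33.7 and 35.3 and 18.7, 19.7 and 18.9 in PC9 CTRL (-0.82 ± 0.03), and 71.2, 70.2 and 70.9 and 33.7, 36.2 and 29.9 in HCC4006 CTRL (-1.07 ± 0.06). CDC25C, its G2 relative, had the smallest fall of all members in PC9 (-0.59 ± 0.05) and -2.62 ± 0.09 in HCC4006. CKS1B and CKS2 encode small CDK-binding subunits. CKS2 had the highest level of all members per length in both lines (422 ± 7.49 FPKM, SD, in PC9 CTRL DMSO and 399 ± 8.5 in HCC4006) and went to 222 ± 7.45 and 83.8 ± 2.87 under OT.

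**Figure D2:**
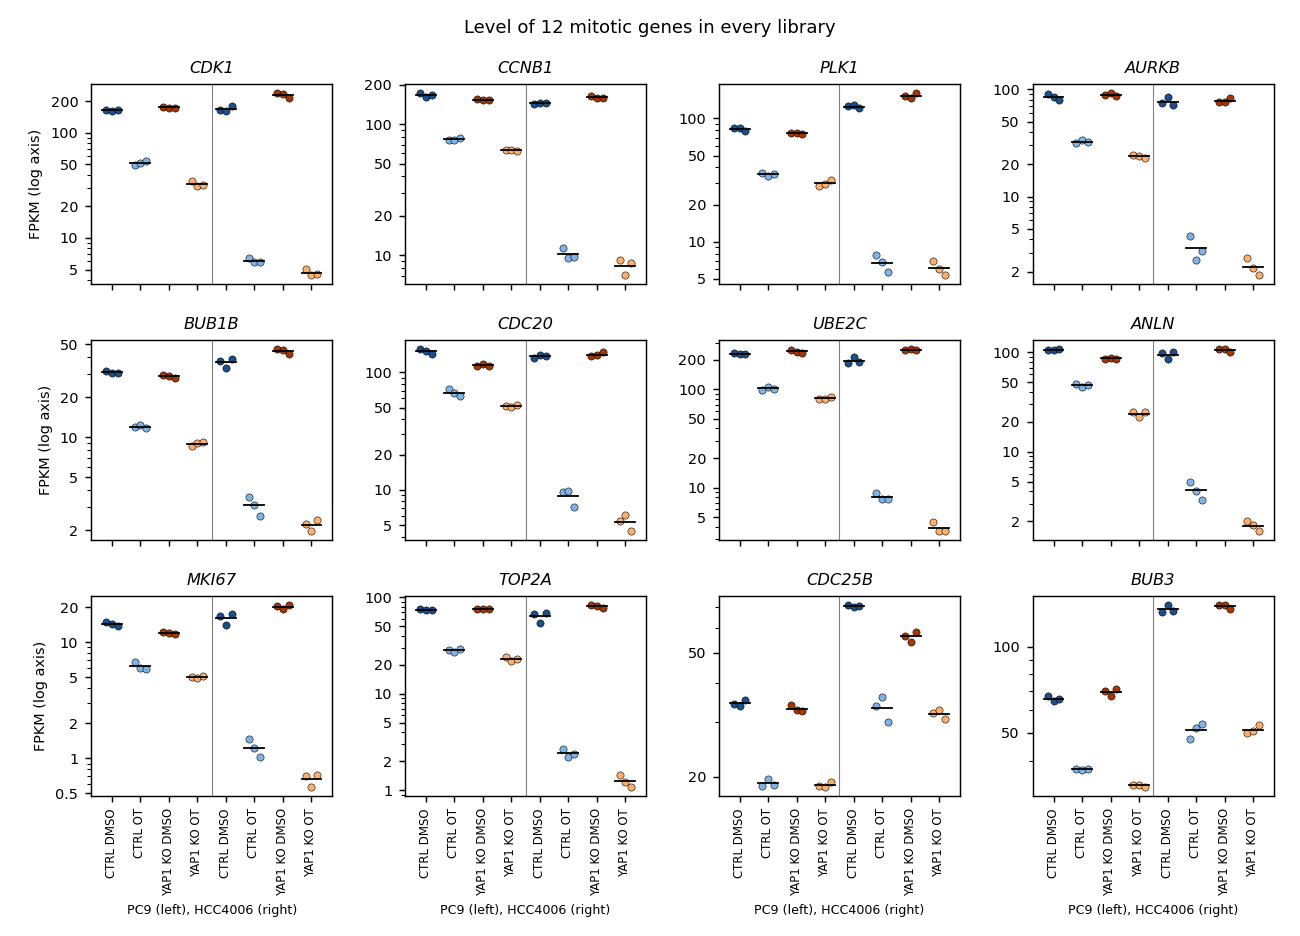
Each panel shows 1 gene, each point 1 library and each bar the mean of 3, in FPKM on a log axis, with PC9 on the left and HCC4006 on the right of the grey line. In every panel the OT points lie below the DMSO points of the same line and genotype. The gap is wider in HCC4006, where CDK1 went from at least 162 to at most 6.51 FPKM in CTRL cells.

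All 5 mitotic kinases fell in each line (median -1.20 in PC9 CTRL, -3.49 in HCC4006 CTRL). PLK1, which acts at centrosomes, kinetochores and the midbody, read 84.0, 83.7 and 78.8 FPKM and then 36.2, 34.0 and 35.4 in PC9 CTRL (-1.20 ± 0.04). In HCC4006 CTRL it read 125, 128 and 121 and 7.83, 6.8 and 5.64 (-4.03 ± 0.10), the largest fall in this group on the mean of the lines. PLK4, the kinase that licenses centriole duplication, fell more than PLK1 in PC9 (14.8, 15.0 and 14.6 to 4.61, 4.39 and 4.8 FPKM, -1.50 ± 0.05). In HCC4006 PLK4 went from 15.3, 14.0 and 16.7 to 1.2, 1.0 and 1.25 (-2.93 ± 0.07), the smallest log2 difference of this group there. The added 1 FPKM shortens the log2 difference of so low a gene: as ratios of means, PLK4 kept 31.1% in PC9 and 7.5% in HCC4006, and MELK kept more in both (35% and 9.21%). AURKA, the Aurora kinase of the spindle poles, stood at 62.5 ± 2.47 FPKM in PC9 CTRL DMSO and 158 ± 2.03 in HCC4006, and ended lower in HCC4006 (9.97 ± 1.22 against 31.4 ± 0.594). NEK2, which separates the centrosomes, had log2 differences of -1.10 and -3.49, PC9 before HCC4006. Those of MELK were -1.44 and -3.24.

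The 5 spindle-checkpoint genes all fell in each line (median -1.17 in PC9 CTRL, -3.35 in HCC4006 CTRL), but not equally. MAD2L1, which encodes the MAD2 protein that binds CDC20, had the largest fall of the 44 in PC9, from 71.8, 67.8 and 67.5 to 17.0, 19.0 and 20.4 FPKM (-1.83 ± 0.08, adjusted p = 1.2e-09). In HCC4006 CTRL it went from 89.5, 91.6 and 103 to 5.39, 4.64 and 6.04 (-3.92 ± 0.08). BUB1B, which encodes BUBR1, went from 31.2, 30.4 and 30.6 to 11.9, 12.4 and 11.7 in PC9 CTRL (-1.29 ± 0.03) and from 37.7, 33.2 and 38.6 to 3.58, 3.07 and 2.55 in HCC4006 CTRL (-3.21 ± 0.09). BUB3, the WD-repeat partner that brings BUB1 and BUBR1 to kinetochores, was the least affected. It went from 67.3, 64.7 and 65.5 to 37.4, 37.2 and 37.3 in PC9 CTRL (-0.80 ± 0.03) and from 132, 139.5 and 134 to 47.4, 52.0 and 53.8 in HCC4006 CTRL (-1.39 ± 0.05). BUB3 thus kept 37.8% of its mean level in HCC4006, where BUB1 kept 6.77%, BUB1B 8.4%, MAD2L1 5.65% and TTK, the kinase MPS1, 5.22%.

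All 6 genes of APC/C activity and anaphase fell in each line (median -1.07 in PC9 CTRL, -3.25 in HCC4006 CTRL). UBE2C, the ubiquitin-conjugating enzyme that starts chains on APC/C substrates, went from 233, 229 and 229.8 to 99.6, 107 and 102 FPKM in PC9 CTRL (-1.16 ± 0.03) and from 188, 213 and 190.0 to 8.9, 7.66 and 7.59 in HCC4006 CTRL (-4.45 ± 0.07). CDC20, the mitotic APC/C activator and checkpoint target, went from 158, 152 and 144 to 72.4, 66.2 and 62.7 (-1.16 ± 0.05) and from 133, 139.7 and 137 to 9.59, 9.72 and 7.21 (-3.82 ± 0.10). The log2 differences of UBE2S, which extends the chains, were -0.97 in PC9 and -3.12 in HCC4006, those of PTTG1, securin, -0.75 and -3.38, and those of FBXO5, the APC/C inhibitor EMI1, -1.24 and -2.35. ESPL1, separase, had the smallest log2 difference of this group on the mean of the lines and the lowest level of the 44 in CTRL DMSO cells. It went from 4.7, 4.69 and 4.44 to 2.17, 2.08 and 2.1 FPKM in PC9 CTRL (-0.85 ± 0.06) and from 4.09, 3.78 and 3.66 to 0.343, 0.182 and 0.162 in HCC4006 CTRL (-1.98 ± 0.07). The added 1 FPKM bears on this value too: as a ratio of means, ESPL1 kept 5.95% in HCC4006.

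The 4 genes of the chromosomal passenger complex, which corrects faulty attachments and marks the division plane, fell in each line (median -1.14 in PC9 CTRL, -3.85 in HCC4006 CTRL). AURKB, its kinase, went from 89.5, 84.9 and 80.2 to 31.2, 33.5 and 32.2 FPKM in PC9 CTRL (-1.37 ± 0.04) and from 75.0, 83.9 and 70.7 to 4.31, 2.56 and 3.12 in HCC4006 CTRL (-4.18 ± 0.13). INCENP, its scaffold, moved least, from 17.0, 16.1 and 13.9 to 8.56, 7.44 and 6.95 (-0.95 ± 0.10) and from 10.5, 10.6 and 11.5 to 1.8, 1.5 and 1.51 (-2.19 ± 0.07). BIRC5 (survivin) and CDCA8 (borealin) lay between them in HCC4006, at -3.95 ± 0.08 and -3.76 ± 0.07.

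Of the 6 spindle-assembly genes all fell in each line (median -0.92 in PC9 CTRL, -3.54 in HCC4006 CTRL). TPX2, which activates AURKA on spindle microtubules, went from 98.2, 95.8 and 97.5 to 44.2, 44.5 and 42.2 FPKM in PC9 CTRL (-1.14 ± 0.03) and from 103, 101 and 105 to 7.39, 7.34 and 6.14 in HCC4006 CTRL (-3.71 ± 0.06). ASPM, a spindle-pole protein, went from 10.5, 10.3 and 10.2 to 5.6, 5.29 and 6.0 (-0.77 ± 0.07) and from 11.3, 8.79 and 12.5 to 0.687, 0.816 and 0.76 (-2.75 ± 0.10), the smallest log2 difference of the group in each line. As ratios of means, DLGAP5 kept slightly more in PC9 CTRL (54.9% against 54.5%) and NUSAP1 in HCC4006 CTRL (7.06% against 6.93%). DLGAP5, which stabilises kinetochore fibres, differed most between the lines here, with -0.84 ± 0.05 in PC9 and -3.96 ± 0.06 in HCC4006. HMMR, NUSAP1 and GTSE1, which bind spindle microtubules, kept 52.0%, 46.2% and 50.3% of their mean level in PC9 CTRL and 6.65%, 7.06% and 4.77% in HCC4006 CTRL.

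All 4 cytokinesis genes fell in each line (median -1.15 in PC9 CTRL, -3.47 in HCC4006 CTRL). ANLN, anillin, which links actin, septins and the membrane in the cleavage furrow, went from 106, 106 and 108 to 47.8, 44.3 and 47.0 FPKM in PC9 CTRL (-1.18 ± 0.04) and from 97.5, 84.5 and 101 to 4.98, 4.02 and 3.3 in HCC4006 CTRL (-4.23 ± 0.11). RACGAP1, part of centralspindlin, moved least on the mean of the lines and in PC9, from 47.0, 44.5 and 43.2 to 21.0, 20.3 and 21.1 (-1.07 ± 0.04) and from 49.5, 50.8 and 54.1 to 5.59, 5.38 and 5.17 (-3.04 ± 0.05). ECT2, the RhoA exchange factor that centralspindlin recruits, had log2 differences of -1.30 in PC9 and -2.89 in HCC4006, the smallest of the 4 there, and PRC1, which bundles the midzone microtubules, of -1.12 and -3.91.

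The 5 genes of transcription and chromatin also fell in each line (median -1.10 in PC9 CTRL, -3.44 in HCC4006 CTRL). FOXM1, a transcription factor of G2 and M phase genes, moved least of them on the mean of the lines, from 54.3, 53.0 and 52.2 to 27.9, 25.9 and 23.6 FPKM in PC9 CTRL (-1.02 ± 0.05) and from 25.9, 25.3 and 25.3 to 3.61, 2.83 and 2.49 in HCC4006 CTRL (-2.75 ± 0.08). TOP2A, the topoisomerase that untangles sister chromatids, had the largest fall on that mean, from 74.8, 73.4 and 72.8 to 28.4, 27.3 and 28.9 (-1.35 ± 0.04) and from 67.5, 54.5 and 68.9 to 2.66, 2.21 and 2.36 (-4.24 ± 0.09). MKI67, the Ki-67 proliferation antigen, went from 15.0, 14.4 and 13.9 to 6.71, 6.01 and 5.85 (-1.10 ± 0.05) and from 16.7, 14.2 and 17.4 to 1.46, 1.22 and 1.03 (-2.93 ± 0.09). MYBL2, which encodes B-MYB, ranked higher among the falls in PC9 (-1.54 ± 0.06) than in HCC4006 (-3.57 ± 0.10). HMGB2, a chromatin protein, stood at -1.02 and -3.44.

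**Figure D3:**
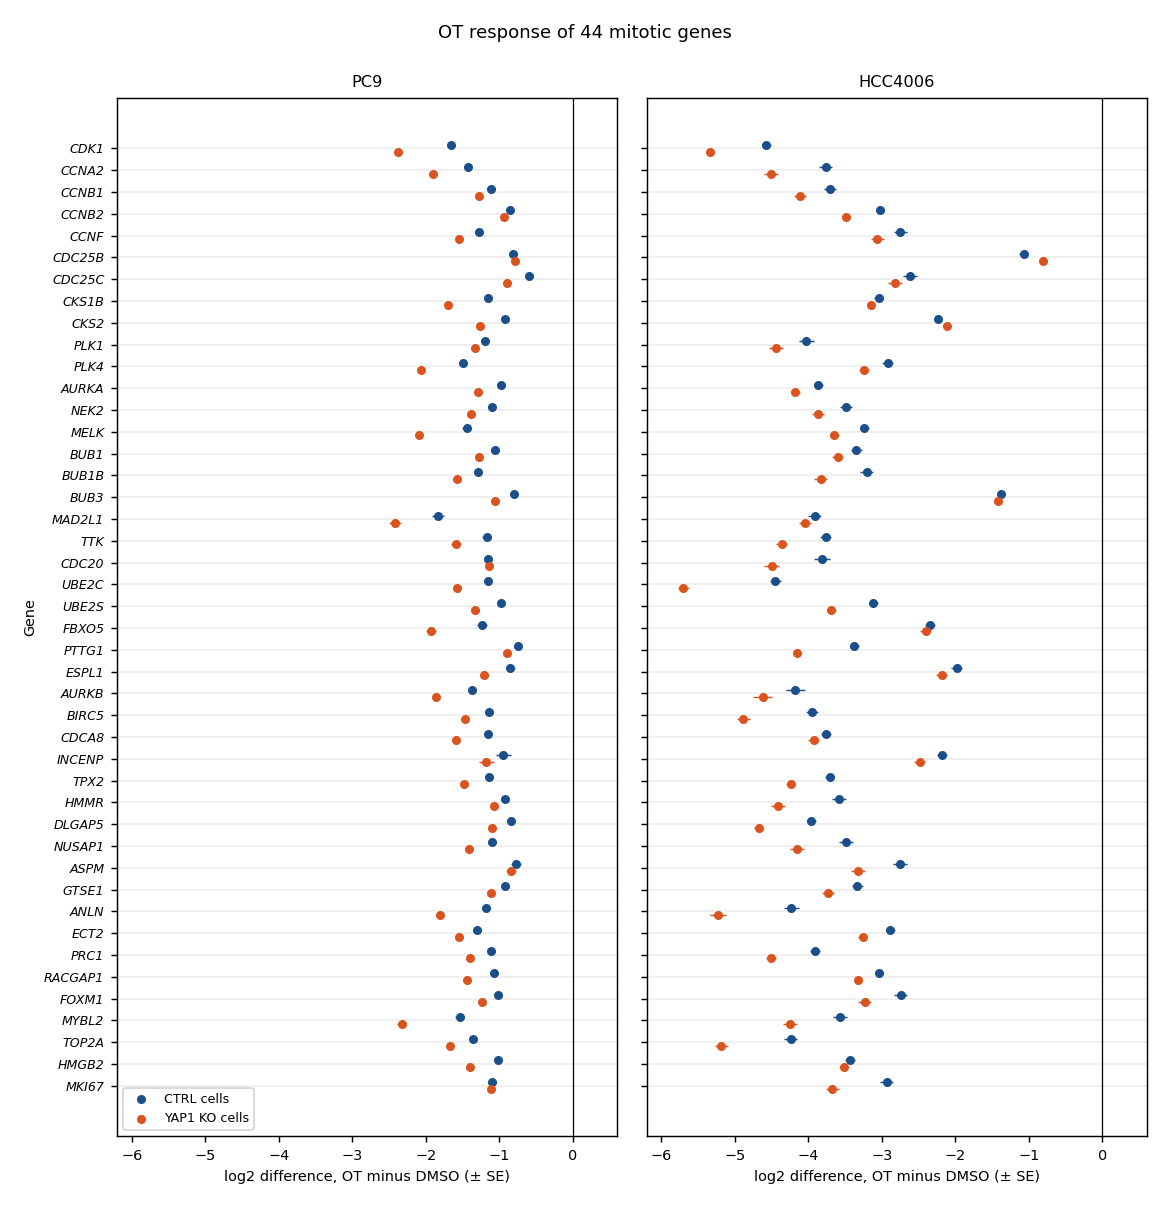
Points are log2 differences (OT minus DMSO, ± SE) of the 44 genes in CTRL and YAP1 KO cells, PC9 left and HCC4006 right, on the same scale. Every point lies left of 0. The PC9 points in CTRL cells span -1.83 to -0.59 and those of HCC4006 -4.58 to -1.07.

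The response to OT was larger in HCC4006 than in PC9. In a joint fit of all 24 libraries over the 11845 genes measured in both lines, the OT response of CTRL cells was lower in HCC4006 for 44 of 44 members, against 27.1% of all genes, with a median difference between the lines of -2.32. In YAP1 KO cells it was lower for 43 of 44 (25.3% of all genes; median -2.49), the exception being CDC25B (-0.03 ± 0.07, adjusted p = 0.74). The widest gaps in CTRL cells were in UBE2C (-3.29 ± 0.08), DLGAP5 (-3.12 ± 0.08), ANLN (-3.05 ± 0.12), CDK1 (-2.92 ± 0.07) and AURKA (-2.89 ± 0.08). In YAP1 KO cells they were in UBE2C (-4.13 ± 0.08), DLGAP5 (-3.58 ± 0.08), TOP2A (-3.51 ± 0.10), ANLN (-3.42 ± 0.12) and BIRC5 (-3.42 ± 0.09). The narrowest gaps in CTRL cells belonged to CDC25B (-0.25 ± 0.07, adjusted p = 0.0028) and BUB3 (-0.59 ± 0.05, adjusted p = 1.1e-08). The order of the members was partly shared: across the 44 members, which come from the same libraries, Pearson's r between the lines was 0.48 and Spearman's rho 0.47 for the CTRL response. The CDC25B call in CTRL cells was lost when every library was scaled to the same FPKM sum.

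**Figure D4:**
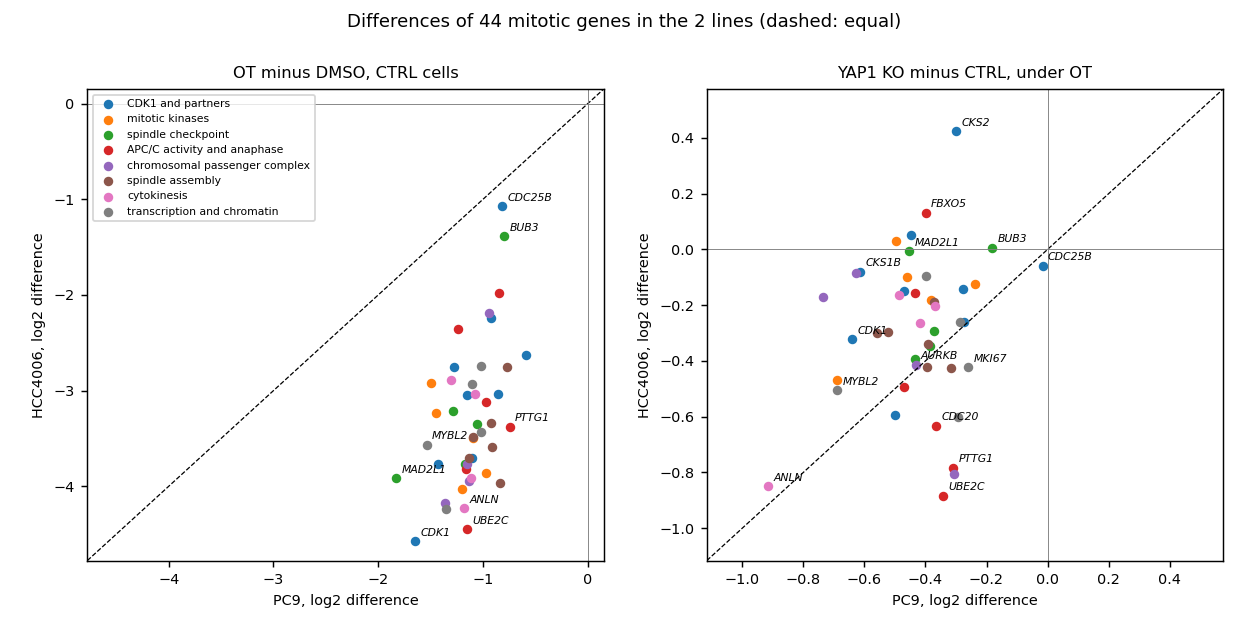
Each point is 1 of the 44 genes, coloured by role, with its log2 difference in PC9 on the x axis and in HCC4006 on the y axis, for OT minus DMSO in CTRL cells (left) and YAP1 KO minus CTRL under OT (right). The dashed line marks equal differences. On the left all points lie below the dashed line, with CDC25B and BUB3 nearest to it. On the right ANLN is low in both lines, whereas CKS2 is above 0 in HCC4006 alone.

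Without drug, YAP1 knockout went with opposite differences in the lines. In PC9 under DMSO 21 members were lower in YAP1 KO cells (20.0% of all genes were) and 2 were higher (19.8%), with a median log2 difference of -0.11. In HCC4006 1 member was lower (8.65%) and 14 were higher (9.20%), with a median of 0.18. The differences were small: the level in knockout cells was between 74.3% and 123% of that in CTRL cells in PC9 (median 92.8%) and between 79.8% and 136% in HCC4006 (median 114%). The summed level of the 44 genes was 3760.3 ± 29.76 FPKM (SD, n = 3) in PC9 YAP1 KO and 4562.9 ± 31.83 in HCC4006 YAP1 KO, against the CTRL values above. The lines' knockout differences differed by test in 27 members, of which 26 were higher in HCC4006 (16.7% of all genes) and 1 was lower (13.3%), CDC25B (-0.27 ± 0.07). There were 9 members that were called lower in PC9 and higher in HCC4006 (1.54% of the genes measured in both lines). The widest gaps were in ASPM (0.69 ± 0.12), INCENP (0.61 ± 0.13), NUSAP1 (0.58 ± 0.10), MKI67 (0.57 ± 0.10) and HMMR (0.56 ± 0.11).

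In PC9 under DMSO the smallest adjusted p-values were those of CDC20, GTSE1, CDCA8 and NUSAP1. CDC20 read 158, 152 and 144 FPKM in CTRL and 114, 116 and 114 in YAP1 KO (-0.39 ± 0.05, adjusted p = 4.0e-05). GTSE1 read 20.2, 19.5 and 19.1 and 15.3, 14.5 and 15.0 (-0.37 ± 0.05, adjusted p = 5.6e-05). For both genes every knockout library was below every control library. CDCA8 (-0.30 ± 0.04, adjusted p = 7.9e-05) and NUSAP1 (-0.20 ± 0.03, adjusted p = 1.3e-04) were lower too. FBXO5 was higher in knockout cells, at 21.4, 21.7 and 20.0 against 18.1, 16.1 and 17.1 FPKM (0.29 ± 0.07, adjusted p = 0.0068). BUB3 was called higher by a small margin (70.0, 67.4 and 71.1 against 67.3, 64.7 and 65.5 FPKM, 0.08 ± 0.03, adjusted p = 0.036). The call for BUB3 was lost when CTRL DMSO replicate 2 or 3 was dropped, when YAP1 KO DMSO replicate 1 or 3 was dropped, and under median-of-ratios scaling or a fit with no intensity trend, which leaves 1 higher member. Of the 21 lower members 15 kept their call with each library left out in turn. MKI67 read 15.0, 14.4 and 13.9 in CTRL and 12.1, 11.9 and 11.7 in YAP1 KO (-0.25 ± 0.05, adjusted p = 0.0013), so its libraries did not overlap either.

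In HCC4006 under DMSO the smallest adjusted p-values were those of CCNB2, CDK1, CKS2 and AURKA, all higher in knockout cells. CDK1 read 164, 162 and 178 FPKM in CTRL and 237, 234 and 215 in YAP1 KO (0.44 ± 0.06, adjusted p = 4.1e-04). CCNB2, cyclin B2, read 105, 109 and 108 and 136, 132 and 131 (0.31 ± 0.04, adjusted p = 1.9e-04). The libraries of both genes did not overlap. CKS2 (0.30 ± 0.04, adjusted p = 5.5e-04) and AURKA (0.34 ± 0.06, adjusted p = 0.0031) were higher too. CDC25B was the only member called lower, at 56.7, 54.2 and 58.4 against 71.2, 70.2 and 70.9 FPKM (-0.32 ± 0.06, adjusted p = 0.0032). The count of 14 rests on single libraries: it was 9 without CTRL DMSO replicate 2, 8 without YAP1 KO DMSO replicate 1 and 9 without YAP1 KO DMSO replicate 2, and 7 of the 14 members kept their call with each library left out in turn. TOP2A and MKI67 were among those that did not (0.34 ± 0.09 and 0.32 ± 0.09 with all libraries).

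**Figure D5:**
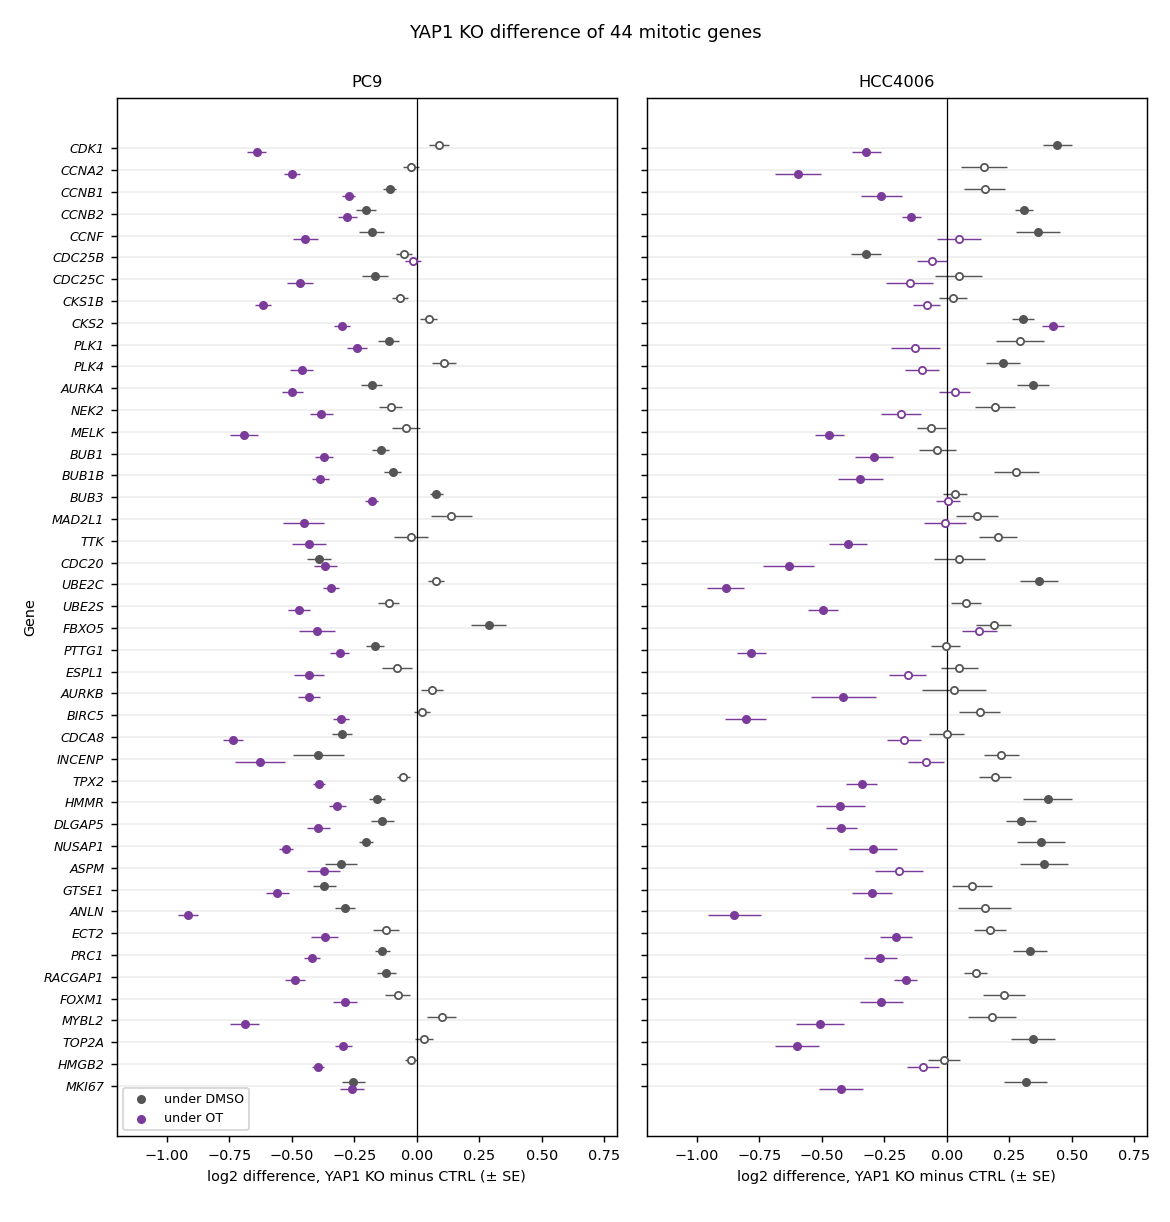
Points are log2 differences (YAP1 KO minus CTRL, ± SE) of the 44 genes under DMSO and under OT, PC9 left and HCC4006 right. Filled points have an adjusted p below 0.05, hollow points do not. In PC9 the OT points lie left of 0 for all 44 genes. In HCC4006 many DMSO points lie right of 0 and most OT points left of it.

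Under OT, members were lower in YAP1 KO cells in both lines. In PC9 43 of 44 were lower (25.2% of all genes were), none was higher (28.5%), and the median log2 difference was -0.40 (all genes: 0.02). The exception was CDC25B (18.6, 18.6 and 19.3 against 18.7, 19.7 and 18.9 FPKM in CTRL, -0.02 ± 0.03, adjusted p = 0.7). In HCC4006 27 were lower (16.4% of all genes) and 1 was higher (27.2%), with a median of -0.26 (all genes: 0.06). The level in knockout cells was between 52% and 98.8% of that in CTRL cells in PC9 (median 73.6%) and between 44.1% and 135% in HCC4006 (median 75.7%). The 27 members that were lower in HCC4006 were lower in PC9 as well (7.81% of the genes measured in both lines were lower in each). Of them 22 kept their call in HCC4006 with each library left out, and in PC9 all 43 did. The order of the members was hardly shared, with a Pearson's r between the lines of 0.17 and a Spearman's rho of 0.04 across the 44. The summed level of the 44 genes was 1405.6 ± 11.74 FPKM (SD, n = 3) in PC9 YAP1 KO OT and 394.1 ± 4.24 in HCC4006 YAP1 KO OT, against 1856.9 ± 16.45 and 427.0 ± 6.57 in CTRL OT.

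ANLN had the smallest adjusted p in PC9 under OT, with 47.8, 44.3 and 47.0 FPKM in CTRL and 24.9, 22.4 and 25.0 in YAP1 KO (-0.92 ± 0.04, adjusted p = 8.4e-09). In HCC4006 ANLN read 4.98, 4.02 and 3.3 in CTRL OT and 2.01, 1.82 and 1.61 in YAP1 KO OT (-0.85 ± 0.11, adjusted p = 5.7e-05). The libraries did not overlap in either line. In PC9 CKS1B (-0.62 ± 0.03, adjusted p = 2.7e-08), CDCA8 (-0.74 ± 0.04, adjusted p = 2.9e-08) and NUSAP1 (-0.52 ± 0.03, adjusted p = 3.4e-08) came next. The smallest adjusted p-values in HCC4006 were those of PTTG1, UBE2C, CKS2 and BIRC5. PTTG1 read 24.8, 29.7 and 29.5 and 15.6, 15.9 and 15.9 FPKM (-0.78 ± 0.06, adjusted p = 7.6e-07), and UBE2C 8.9, 7.66 and 7.59 and 4.43, 3.65 and 3.64 (-0.88 ± 0.07, adjusted p = 2.4e-06). BIRC5, whose survivin protein is also known as an inhibitor of apoptosis, read 6.0, 4.33 and 4.87 and 2.29, 2.7 and 2.37 (-0.80 ± 0.08, adjusted p = 1.2e-05). CKS2 alone was higher in knockout cells, with 81.3, 83.1 and 86.9 in CTRL and 109.7, 113 and 115 in YAP1 KO (0.42 ± 0.04, adjusted p = 1.1e-05). That count of 1 was 2 without CTRL OT replicate 1 or without YAP1 KO OT replicate 2.

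CKS1B and CKS2, whose windows are printed above, parted here. Whether their promoters bear on this was not tested. In PC9 both were lower in knockout cells under OT, CKS2 with 216, 220.2 and 230.4 against 179, 186 and 176 FPKM (-0.30 ± 0.03). In HCC4006 CKS1B read 28.1, 30.2 and 29.9 in CTRL and 28.7, 26.7 and 27.9 in YAP1 KO (-0.08 ± 0.06, adjusted p = 0.26), overlapping, while CKS2 was higher. The line difference in the knockout effect under OT was the widest for CKS2 (0.72 ± 0.05, adjusted p = 1.5e-09), followed by CDCA8 (0.57 ± 0.08), INCENP (0.54 ± 0.13), UBE2C (-0.54 ± 0.08) and CKS1B (0.54 ± 0.07). In all, 18 members had a higher knockout difference in HCC4006 than in PC9 (25.4% of all genes) and 4 a lower one (17.1%), and 22 had no call. Of the 18, 13 kept their call under every other setting and with each library left out, and of the 4, 3 did. CCNB2, CDC25C, MELK, ESPL1 and GTSE1 lost the call of a higher difference when 0.1 or 0.01 FPKM was added in place of 1. CKS1B, PTTG1, HMGB2 and UBE2S have near-identical copies elsewhere in the genome, and the labels do not say how fragments shared by copies were assigned. PTTG2 and PTTG3P, listed on their own rows, did not exceed 2.04 FPKM in any library.

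The interaction, taken as the OT change of knockout cells less that of CTRL cells, tested whether the response itself differed. In PC9 35 members had a called negative interaction (13.8% of all genes) and none a positive one (13.2%), with a median of -0.32. In HCC4006 29 were negative (8.18%) and 1 was positive (10.5%), with a median of -0.43, and 23 members were called negative in both lines (3.43% of the genes measured in both). Counted without regard to the test, 42 of 44 members had an interaction below 0 in each line, against 47.1% of all genes in PC9 and 42.7% in HCC4006. The size of the interaction was not shared member by member, with a Pearson's r between the lines of 0.04 and a Spearman's rho of -0.04. In PC9 21 members were lower in knockout cells under DMSO and under OT (13.2% of all genes), 20 were lower under OT with no call under DMSO (10.5%), and 2, BUB3 and FBXO5, were higher under DMSO and lower under OT (1.52%). In HCC4006 none was lower under both (5.17%), 18 were lower under OT with no call under DMSO (10.8%), and 9 were higher under DMSO and lower under OT (0.427%). The count of 9 draws on the 14 higher calls under DMSO, of which 7 were kept with each library left out. The smallest adjusted p-values in PC9 were those of CDK1 (-0.73 ± 0.05, adjusted p = 3.3e-06), CKS1B (-0.55 ± 0.05, adjusted p = 6.1e-06), HMGB2 (-0.38 ± 0.03, adjusted p = 1.0e-05) and ANLN (-0.63 ± 0.06, adjusted p = 1.2e-05). In HCC4006 they were those of UBE2C (-1.25 ± 0.11, adjusted p = 1.1e-05), PTTG1 (-0.78 ± 0.08, adjusted p = 5.4e-05), CDK1 (-0.76 ± 0.08, adjusted p = 7.9e-05) and CCNB2 (-0.45 ± 0.05, adjusted p = 1.1e-04).

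CDK1 shows both sides of the interaction. In PC9 it read 177, 173 and 174 FPKM in YAP1 KO DMSO, where the difference from CTRL did not pass the test (0.09 ± 0.04, adjusted p = 0.09), and 34.8, 31.5 and 31.7 in YAP1 KO OT, below every CTRL OT library (-0.64 ± 0.04). In HCC4006 it was higher than in CTRL under DMSO and lower under OT (5.02, 4.44 and 4.54 against 6.51, 5.85 and 5.89, -0.32 ± 0.06, adjusted p = 0.001). UBE2C in HCC4006 had the same form, with 251, 257 and 254 FPKM in YAP1 KO DMSO against 188, 213 and 190.0 in CTRL DMSO. It kept 1.54% of its DMSO mean under OT in knockout cells and 4.09% in CTRL cells. CDC25B was the exception in HCC4006, with a called positive interaction (0.26 ± 0.08, adjusted p = 0.049). That call was lost with 10 of the 12 single libraries left out and under each other setting except the filter at 5 FPKM, and then the count of positive interactions was 0. The interaction of BUB3 was -0.26 ± 0.04 (adjusted p = 3.9e-04) in PC9 cells, and in HCC4006 it was -0.03 ± 0.07 (adjusted p = 0.83).

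By role, the knockout difference under OT in PC9 was called lower in 8 of 9 genes of CDK1 and its partners, and in every gene of the other roles: 5 of 5 mitotic kinases, 5 of 5 checkpoint genes, 6 of 6 of APC/C activity and anaphase, 4 of 4 passenger-complex genes, 6 of 6 of spindle assembly, 4 of 4 of cytokinesis and 5 of 5 of transcription and chromatin. In HCC4006 the same counts were 4 of 9, 1 of 5, 3 of 5, 4 of 6, 2 of 4, 5 of 6, 4 of 4 and 4 of 5. Of all genes, 25.2% were called lower in PC9 and 16.4% in HCC4006. Kinases counted under other roles include CDK1 and AURKB, and both were called lower in HCC4006. Among the mitotic kinases there MELK (-0.47 ± 0.06, adjusted p = 5.2e-05) was lower, PLK1 read 7.83, 6.8 and 5.64 against 6.96, 5.96 and 5.37 FPKM (-0.12 ± 0.10, adjusted p = 0.32), and AURKA had a difference of 0.03 ± 0.06 (adjusted p = 0.72). In PC9 both PLK1 (36.2, 34.0 and 35.4 against 28.3, 29.4 and 31.4 FPKM, -0.24 ± 0.04) and AURKB (31.2, 33.5 and 32.2 against 24.4, 23.9 and 22.8, -0.43 ± 0.04) were lower. AURKB was lower in HCC4006 as well (4.31, 2.56 and 3.12 against 2.67, 2.14 and 1.86, -0.41 ± 0.13, adjusted p = 0.022), a call lost without CTRL OT replicate 1, YAP1 KO OT replicate 2 or YAP1 KO OT replicate 3.

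Further members under OT are given library by library, CTRL before YAP1 KO. FOXM1 went from 27.9, 25.9 and 23.6 in CTRL OT to 20.8, 21.1 and 20.9 in YAP1 KO OT in PC9 (-0.29 ± 0.05) and from 3.61, 2.83 and 2.49 to 2.46, 2.19 and 2.24 in HCC4006 (-0.26 ± 0.08, adjusted p = 0.026). The HCC4006 call was lost without CTRL OT replicate 1, YAP1 KO OT replicate 2 or YAP1 KO OT replicate 3 and under same-sum scaling. TOP2A went from 28.4, 27.3 and 28.9 to 24.0, 21.7 and 22.9 in PC9 (-0.29 ± 0.04) and from 2.66, 2.21 and 2.36 to 1.43, 1.22 and 1.09 in HCC4006 (-0.60 ± 0.09). MKI67 went from 6.71, 6.01 and 5.85 to 4.97, 4.94 and 5.09 (-0.26 ± 0.05) and from 1.46, 1.22 and 1.03 to 0.706, 0.57 and 0.716 (-0.42 ± 0.09). All 3 genes were thus lower in knockout cells in both lines. BUB1B went from 11.9, 12.4 and 11.7 to 8.64, 9.02 and 9.2 (-0.39 ± 0.03) and from 3.58, 3.07 and 2.55 to 2.21, 1.98 and 2.37 (-0.35 ± 0.09), and CDC20 from 72.4, 66.2 and 62.7 to 51.9, 50.8 and 52.5 (-0.37 ± 0.05) and from 9.59, 9.72 and 7.21 to 5.43, 6.08 and 4.5 (-0.63 ± 0.10). CCNB1 went from 76.4, 75.2 and 78.0 to 63.7, 63.4 and 62.3 (-0.27 ± 0.03) and from 11.4, 9.47 and 9.64 to 9.24, 7.08 and 8.7 in HCC4006 (-0.26 ± 0.08, adjusted p = 0.022). In HCC4006 its call was lost without CTRL OT replicate 1 or YAP1 KO OT replicate 2 and under same-sum scaling. Checkpoint member MAD2L1 was lower in PC9 (17.0, 19.0 and 20.4 against 14.9, 14.0 and 11.6, -0.45 ± 0.08), while in HCC4006 it read 5.39, 4.64 and 6.04 and 5.6, 5.48 and 4.85 (-0.01 ± 0.08, adjusted p = 0.96).

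Other genes of the pathway were read from lists that hold no member. Of all genes, 40.9% fell and 32.0% rose under OT in PC9 CTRL cells, and 36.6% fell and 45.0% rose in HCC4006 CTRL cells, and the OT counts of the lists are to be read against these. Kinetochore, condensin and mitotic kinesin genes, of which 34 were measured in each line, fell under OT too, 34 of 34 in CTRL cells of PC9 (median -1.12) and of HCC4006 (median -2.85), with SPC25, a kinetochore protein, at -1.35 and -3.94. Under OT 32 of 34 were lower in YAP1 KO cells in PC9 (25.2% of all genes; median -0.42). In HCC4006 12 were lower (16.4%) and 2 higher (27.2%), with a median of -0.14. Of 14 genes, the APC/C core subunits with the activator FZR1, 9 fell and 2 rose under OT in PC9 CTRL (median -0.19), and 12 fell and 1 rose in HCC4006 CTRL (median -0.43), with ANAPC7 at -0.80 and -1.48 and ANAPC2, which rose, at 0.13 and 0.18. Of 14 genes of CDK1 entry control and the Greatwall pathway, 13 fell and CDK7 rose in PC9 CTRL (median -0.50), and 13 fell in HCC4006 CTRL (median -0.62), with PKMYT1, an inhibitory kinase of CDK1, at -1.69 and -3.32. Of 18 genes of MuvB, DREAM and E2F, 15 fell and 2 rose in each line, with the activator E2F1 at -2.27 and -3.12 and RBL2, a pocket protein of DREAM, which rose, at 0.35 and 0.62. TFDP2, of the same list, also rose in CTRL cells of both lines (0.478 on the mean of the lines). Of ERK output genes all measured ones fell (12 of 12 in PC9, 13 of 13 in HCC4006).

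DNA replication genes are given beside the mitotic ones because both serve the cell cycle. Under OT 25 of 27 were lower (25.2% of all genes) and 1 was higher (28.5%) in PC9 YAP1 KO cells, with a median of -0.67 where the mitotic genes had -0.40. In HCC4006 10 were lower (16.4%) and 4 higher (27.2%), with a median of -0.11 where the mitotic genes had -0.26. The interaction was called negative for 26 of 27 replication genes in PC9 (13.8% of all genes). In HCC4006 it was negative for 4 (8.18%) and positive for 2 (10.5%). The mitotic genes had 35 and 29 of 44 negative. RRM2, the ribonucleotide reductase subunit, had an interaction of -1.43 ± 0.06 (adjusted p = 8.5e-08) in PC9 cells and one of -0.65 ± 0.19 (adjusted p = 0.034) in HCC4006. The knockout difference under OT differed between the lines in 24 of 27 replication genes, all higher in HCC4006 (25.4% of all genes), and in 22 of the 44 mitotic genes. No test compared the lists with each other.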

How the data were processed

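Messenger RNA was sequenced from 24 libraries, 12 per line and 3 per group, from cells plated in triplicate on 10 cm dishes. The p-values therefore measure the spread between dishes, which may be technical. Tools listed in the submitters' processing notes, without their roles, are STAR 2.5.1b, Cufflinks 2.2.1 and DESeq2 1.10.1, and the builds are hg19 and GRCh37. The authors deposited 1 table of FPKM per gene, which was used as deposited, since per the file headers no counts were given. The DMSO columns of that table are named as untreated. Values were tested as log2(FPKM + 1) with limma 3.58.1 (R 4.3.3), with 4 group means per line, an intensity trend, and genes at 1 FPKM or more in at least 3 of 12 libraries. All 44 members passed in each line. Fold changes of low genes are understated on this scale. Benjamini-Hochberg adjustment ran over all genes tested, and the call was an adjusted p below 0.05. Differences between lines came from 1 fit of all 24 libraries. The fits were tested on simulated data. Errors of differences are standard errors.

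The 44 genes and the comparison lists were chosen with earlier results of these data known. Genes given per library were 11 listed by name and, per role, those with the largest and smallest mean OT change in CTRL cells. For the knockout and the interaction they were the 4 with the smallest adjusted p per line and those called in the opposite direction, and for differences between lines the 5 largest. Others, such as CKS1B beside CKS2, were picked after their values were seen. Alternatives were pseudocounts of 0.1 and 0.01, no filter, a filter at 5 FPKM, median-of-ratios and same-sum scaling, no intensity trend, the replicate number as a block, and each library left out. Promoter windows come from RefSeq on GRCh38.p14 and were searched with Python 3.11.15. Of the table's rows, 28 had symbols turned into dates and none is a member.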

Additional observations from a re-analysis of the deposited data

Results flagged for a closer look

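Tests of a difference between genotypes or lines passed for the following results, and their causes were not tested. The OT response differed between YAP1 KO and CTRL cells in 35 members in PC9 and 29 in HCC4006, all of these with the larger fall in knockout cells. In PC9 the named ones were CDK1 (-0.73), CKS1B (-0.55), HMGB2 (-0.38) and ANLN (-0.63). In HCC4006 they were UBE2C (-1.25), PTTG1 (-0.78), CDK1 (-0.76) and CCNB2 (-0.45), with CDC25B (0.26) the other way.

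Between the lines, as HCC4006 minus PC9 on the log2 scale, the OT response of CTRL cells was lower in 44 members, led by UBE2C (-3.29), DLGAP5 (-3.12), ANLN (-3.05), CDK1 (-2.92) and AURKA (-2.89). In YAP1 KO cells it was lower in 43, led by UBE2C (-4.13), DLGAP5 (-3.58), TOP2A (-3.51), ANLN (-3.42) and BIRC5 (-3.42). The knockout difference under DMSO was higher in 26 and lower in 1, led by ASPM (0.69), INCENP (0.61), NUSAP1 (0.58), MKI67 (0.57) and HMMR (0.56). Under OT it was higher in 18 and lower in 4, led by CKS2 (0.72), CDCA8 (0.57), INCENP (0.54), UBE2C (-0.54) and CKS1B (0.54).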

How the results depend on the processing

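Depth in reads is unknown, and in HCC4006 only 37 of the 44 members read at least 1 FPKM in all 12 libraries, against 44 in PC9, so ratios of the lowest genes are loose. The counts of members lowered by OT were 44 in each line and genotype under every setting, except that the filter at 5 FPKM left 43 to test in each line. Same-sum scaling moved the median of all genes in the OT comparison of HCC4006 CTRL cells from 0.09 to 0.28 and median-of-ratios scaling to -0.03. The member medians of -3.41 and -3.85 are far beyond these shifts.

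The count of members higher in PC9 YAP1 KO cells under DMSO went from 2 to 1 under median-of-ratios scaling and with no intensity trend. The positive interaction count of HCC4006 went from 1 to 0 under both pseudocounts, no filter, both scalings, no intensity trend and the replicate block. Members with a lower knockout difference under OT in HCC4006 than in PC9 went from 4 to 7 with a pseudocount of 0.1 or 0.01. With these, the line difference reversed for ESPL1 (-0.016 and -0.35) and GTSE1 (-0.038 and -0.12), and the cause was not tested. Same-sum scaling lost 22 calls of single members over all comparisons, the most of any setting. Among them were the lower calls of CCNB1, NUSAP1, RACGAP1 and FOXM1 in HCC4006 knockout cells under OT. The negative interactions of CCNB1, PLK4, AURKA and GTSE1 in HCC4006 were lost under it too, as were those of HMMR, ECT2 and FOXM1 in PC9.

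With each library left out, counts ranged from 15 to 22 lower and 1 to 3 higher (PC9 knockout, DMSO), 8 to 19 higher (HCC4006 knockout, DMSO), 23 to 29 lower and 1 to 2 higher (HCC4006 knockout, OT), and 32 to 35 negative interactions in PC9, with 24 to 29 negative and 0 to 1 positive in HCC4006. Between lines the knockout difference was higher in 23 to 27 members under DMSO, and higher in 15 to 19 and lower in 3 to 5 under OT. Over all alternatives for single members, 14073 results kept their direction and side of the threshold, 253 lost and 88 gained a call, and 4 reversed.

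Replicate numbers showed little sign of pairing the libraries: of same-numbered pairs, 3 of 18 in PC9 and 5 of 18 in HCC4006 correlated above 0.1. The median correlation of same-numbered and of different-numbered pairs was 0.003 and -0.002 in PC9, and 0.049 and -0.029 in HCC4006. The check cannot exclude a weak pairing. With the replicate number as a block, 20 members were lower in PC9 knockout cells under DMSO and 15 higher in HCC4006, and 43 and 27 were lower under OT.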

Other observations

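Members outside the naming rule included several that were lower in YAP1 KO cells under OT in both lines. MYBL2, which encodes B-MYB, read 19.1, 19.7 and 16.9 FPKM in PC9 CTRL OT and 11.0, 11.5 and 10.9 in YAP1 KO OT (-0.69 ± 0.06, SE, adjusted p = 1.5e-06). In HCC4006 it read 2.95, 2.92 and 2.07 and 1.31, 1.58 and 1.78 (-0.51 ± 0.10, adjusted p = 0.0012). Its library values did not overlap in either line. CCNA2, cyclin A2, read 30.4, 30.1 and 29.8 and 21.8, 20.7 and 20.4 in PC9 (-0.50 ± 0.03, adjusted p = 1.5e-07) and 3.13, 2.27 and 2.48 and 1.62, 1.22 and 1.35 in HCC4006 (-0.59 ± 0.09, adjusted p = 2.7e-04). MELK, a kinase of the AMPK family, read 12.3, 13.6 and 13.9 and 7.82, 8.04 and 7.67 in PC9 (-0.69 ± 0.06) and 6.19, 5.46 and 6.03 and 3.63, 4.25 and 4.05 in HCC4006 (-0.47 ± 0.06). These 3 genes were singled out after their values were seen.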
